A study of Mus musculus with 9 samples.

Results

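Serpins are a family of proteins that share one fold, and most of them inhibit serine or cysteine proteases. The rule named 5 genes, Serpinf1, Serpine2, Serping1, Serpinb6a and Serpinb9, and took every row of the deposited values whose gene symbol in the platform's probe table was one of them. It found 5 of 17664 spotted cDNA clones, for 4 of 8146 gene symbols: 2 clones of Serpinb6a and 1 clone each of Serpinf1 (NCBI gene 20317), Serping1 (12258) and Serpinb9 (20723). Serpine2, the protease nexin that blocks thrombin and urokinase, had no row under its symbol and was not analysed here. All 5 clones held a value on all 9 arrays.

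An inhibitory serpin offers an exposed reactive center loop as bait, and when a protease cleaves the loop, the serpin changes shape and traps the enzyme in a covalent complex. Some members no longer inhibit proteases and act in other ways. Clade F and G serpins are secreted, whereas clade B serpins lack a classical signal peptide and mostly stay inside the cell, where they protect it from proteases that are misplaced from granules or lysosomes. In tumor stroma the family is known for its ties to blood vessel growth, to the complement and clotting cascades and to the pericellular breakdown of matrix.

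The samples were stroma cut by laser from prostates of male FVB mice hemizygous for CR2-TAg, a transgene that expresses SV40 large T antigen in prostatic neuroendocrine cells under regulatory elements of the cryptidin-2 gene. The invasive cancer group held 6 mice of 24 weeks of age (replicates 1 to 6), which also had metastases, and the PIN group 3 mice of 10 weeks of age with prostate intraepithelial neoplasia (replicates 2, 3 and 4). Stage and age changed together and cannot be told apart, no mouse without the transgene was included, and the dissected band reached farther from the epithelium in invasive cancer. On each array the Cy5 sample was set against a Cy3 pool of the PIN samples, and every value below is a log2 ratio to that pool, so a level of one gene cannot be set against that of another. In bulk stroma, fewer cells of a type and less RNA per cell cannot be told apart.

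Each array held 17189 to 17206 values. PIN replicate 4 stood apart from the other 2 PIN arrays (r = 0.177 and 0.189 over all clones, against 0.672 between those 2), and invasive replicate 3 had the lowest r among the invasive arrays (0.256 with replicate 6). Results are therefore also given without these arrays. A gene or clone was called at an adjusted p under 0.15 in limma, the false discovery rate that the study used. The comparison of invasive cancer with PIN stroma called 304 of 8106 genes higher (3.75%) and 153 lower (1.89%), 5.64% in all, and 261 of 17207 clones higher (1.52%; 2.16% in either direction).

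The promoters of 3 measured members are printed to show where a secreted serpin and its intracellular relatives begin and which short motifs lie there. RefSeq entries (GRCm38.p6) were matched for 4 of 5 members, all but Serping1, and each stretch is the 250 bases before the start. Capitals mark matches, on either strand, to the letters of an interferon-stimulated response element (GAAA, any 2 bases, GAAA), a STAT element (TTC, any 3 bases, GAA), a TATA box (TATAAA), an Sp1 box (GGGCGG) or an AP-1 site (TGANTCA). The first stretch is chr11:75422624-75422873 on the minus strand, the second chr13:33004291-33004540 on the plus strand, and the third, the more upstream of the 2 starts listed for Serpinb6a, chr13:34002795-34003044 on the minus strand.
Serpinf1: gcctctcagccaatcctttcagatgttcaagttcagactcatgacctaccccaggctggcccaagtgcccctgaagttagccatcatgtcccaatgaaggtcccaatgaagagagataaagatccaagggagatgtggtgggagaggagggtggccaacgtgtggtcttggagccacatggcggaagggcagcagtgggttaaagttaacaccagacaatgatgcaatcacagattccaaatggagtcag
Serpinb9: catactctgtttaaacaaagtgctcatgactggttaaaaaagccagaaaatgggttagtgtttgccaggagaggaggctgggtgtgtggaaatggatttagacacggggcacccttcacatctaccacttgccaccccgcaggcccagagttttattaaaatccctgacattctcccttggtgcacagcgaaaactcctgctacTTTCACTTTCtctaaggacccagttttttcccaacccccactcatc
Serpinb6a: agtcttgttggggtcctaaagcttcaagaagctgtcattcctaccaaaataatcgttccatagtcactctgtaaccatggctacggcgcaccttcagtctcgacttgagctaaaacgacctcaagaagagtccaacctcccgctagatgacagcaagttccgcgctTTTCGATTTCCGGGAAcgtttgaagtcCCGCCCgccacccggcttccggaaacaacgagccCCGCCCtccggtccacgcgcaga
The Serpinf1 window held none of these letters. The Serpinb9 window held the interferon element at 46 to 37 bases before the start, and the Serpinb6a window held it at 84 to 75 bases, overlapping the STAT element at 77 to 69 bases, with 2 Sp1 boxes closer to the start. The window of the other Serpinb6a start (chr13:33936084-33936333, minus strand) held none of them. Among 32851 promoter windows of the same length, 2.98% held the interferon element, 7.02% the STAT element and 32.7% the Sp1 box, 12.4% the TATA box and 6.75% the AP-1 site. A match is a run of letters and not a shown binding site.

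Serpinf1 encodes pigment epithelium-derived factor, a secreted serpin without protease inhibitor activity that restrains angiogenesis, and mice that lack it develop an enlarged prostate. Its log2 ratio in invasive cancer stroma was 0.73 at the lowest (replicate 3), 1.85 at the median and 3.37 at the highest (replicate 5). In PIN stroma it was 0.21, 0.32 and -0.76 in replicates 2, 3 and 4. The groups did not overlap, and PIN replicate 4 was well below the other PIN arrays. The mean was 1.94 ± 0.85 (SD, n = 6) in invasive cancer and -0.08 ± 0.59 (SD, n = 3) in PIN stroma. Serpinf1 thus rose by a log2 difference of 2.02 (SE 0.45, 95% interval 1.04 to 3.00), or 4.06-fold, with an adjusted p of 0.0565 among genes and 0.0872 among clones from limma. Among clones the call was lost without invasive replicate 2 or 4 or any single PIN array (adjusted p 0.163 to 0.282). The study chose this gene for one of its lists on these samples, so the call is not independent evidence. The exact two-sided permutation test over the 84 splits of the arrays gave p = 0.0119, the smallest it can give. Without PIN replicate 4 the difference was 1.68 (adjusted p = 0.140), and without PIN replicate 2 it was 2.16 but no longer called (adjusted p = 0.185).

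Serping1 encodes C1 inhibitor, the secreted serpin that blocks the complement proteases C1r and C1s, plasma kallikrein and factor XIIa. Its log2 ratio in invasive cancer stroma was 0.27 at the lowest (replicate 3), 1.46 at the median and 2.00 at the highest (replicate 5). In PIN stroma it was 0.27, 0.38 and 0.11 in replicates 2, 3 and 4. Only invasive replicate 3 fell within the range of the PIN samples, and the rest of its group was higher. The PIN arrays were close together, with a mean of 0.25 ± 0.13 (SD, n = 3), against 1.33 ± 0.64 (SD, n = 6) in invasive cancer. The difference of 1.07 (SE 0.33, 95% interval 0.35 to 1.80), or 2.11-fold, passed among genes at an adjusted p of 0.143 from limma and did not pass among clones (adjusted p = 0.206). The exact two-sided permutation test gave p = 0.0595. The call was lost without any single array other than invasive replicate 3 (adjusted p 0.170 to 0.358). Without PIN replicate 4 the difference was 1.00 (adjusted p = 0.252). Without invasive replicate 3 the difference was 1.29 (adjusted p = 0.0150), in a setting where 11.1% of all genes were called.

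Serpinb9 encodes an intracellular serpin that inhibits granzyme B, the protease with which cytotoxic lymphocytes kill their targets, and it shields both killer cells and some of their targets. Its log2 ratio in invasive cancer stroma was -0.19 at the lowest (replicate 3), 0.32 at the median and 0.95 at the highest (replicate 6). In PIN stroma it was -0.68, -0.23 and -0.71 in replicates 2, 3 and 4. All PIN arrays were below 0 and below all invasive arrays, although invasive replicate 3 and PIN replicate 3 nearly met. The means were 0.36 ± 0.37 (SD, n = 6) and -0.54 ± 0.27 (SD, n = 3). The PIN arrays thus lay below their own reference, a pool of PIN samples, and this enters the difference between the groups. The difference of 0.90 (SE 0.24, 95% interval 0.38 to 1.43), or 1.87-fold, passed among genes (adjusted p = 0.101 from limma) and not among clones (adjusted p = 0.162). The exact two-sided permutation test gave p = 0.0119. The call among genes held without invasive replicate 1, 3 or 6 and was lost without any other single array (adjusted p 0.164 to 0.330). Without PIN replicate 4 the difference was 0.82 (adjusted p = 0.201).

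**Figure D1:**
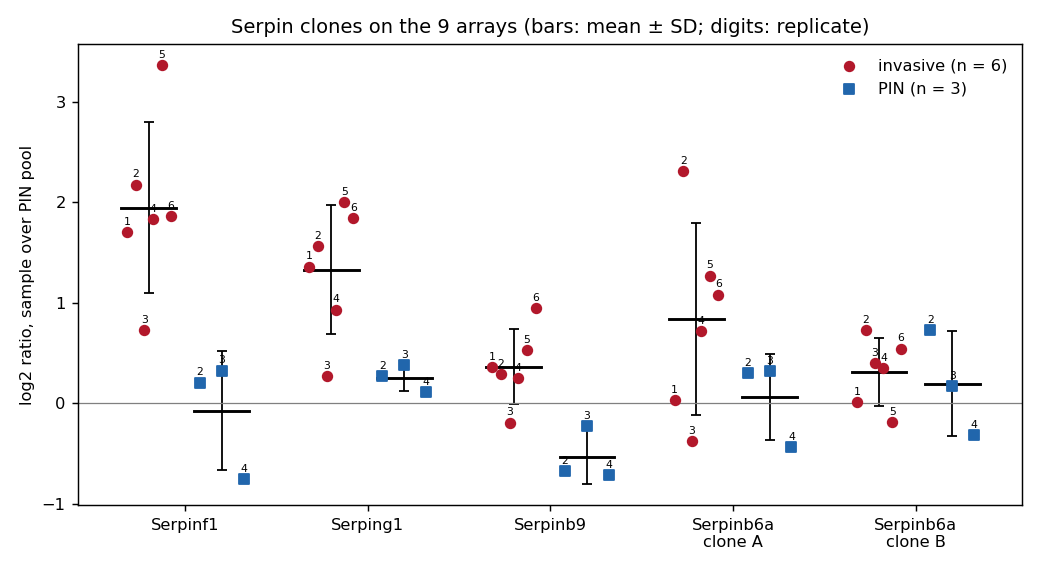
Log2 ratio of sample over PIN pool (vertical axis) for the 5 clones of the 4 measured serpin genes, with invasive cancer arrays as red circles and PIN arrays as blue squares; black bars give the mean ± SD and small digits the replicate. Clone A is the Serpinb6a clone with the larger difference (0.78) and clone B the other (0.11), and Serpinf1 reaches 3.37 on invasive replicate 5.

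Serpinb6a encodes an intracellular serpin that inhibits cathepsin G and related serine proteases. Its 2 clones gave different pictures. The clone with the larger difference, named clone A here, ran from -0.38 (replicate 3) over a median of 0.90 to 2.31 (replicate 2) in invasive cancer stroma, and was 0.30, 0.32 and -0.43 in PIN replicates 2, 3 and 4. The other, clone B, ran from -0.19 (replicate 5) over a median of 0.37 to 0.73 (replicate 2) in invasive cancer stroma, and was 0.73, 0.17 and -0.31 in PIN replicates 2, 3 and 4. The groups overlapped on both clones. Differences were 0.78 (SE 0.48, adjusted p = 0.589 from limma) for clone A and 0.11 (SE 0.28, adjusted p = 0.950) for clone B, and r between the clones was 0.426 over the 9 arrays. Their mean differed by 0.45 (SE 0.33, 95% interval -0.26 to 1.15; adjusted p = 0.585 among genes), an interval that does not exclude a fold like that of Serpinb9. Without PIN replicate 4 the mean of the clones differed by 0.19 (adjusted p = 0.850), clone A by 0.53 and clone B by -0.14, and without invasive replicate 3 they differed by 0.56 (adjusted p = 0.384), 1.02 and 0.09. Clone A was closer to the clone of Serpinb6c, the adjacent gene of the same cluster, with r = 0.821 over the 9 arrays, than clone B was (0.615). Of 16 genes of clade B that RefSeq places in that cluster on chromosome 13, 7 had a row here, and hybridization of a cDNA clone to transcripts of a close relative was not tested.

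Read together, 3 of the 4 measured members were called higher among genes and none lower, against 3.75% of all genes called higher, and in 2 of 4 the lowest invasive value exceeded the highest PIN value, against 4.86% of all genes. Among clones, 1 of 5 was called higher, against 1.52% of all clones. The members were chosen with earlier results of these data known, so these counts are a description and not independent evidence about the family. The median difference of the 4 genes was 0.99, beside 0.02 over all 8106 genes. By size of the increase Serpinf1 ranked 38, Serping1 236, Serpinb9 347 and Serpinb6a 1143 of 8106. None of the 4 passed an adjusted p under 0.05 in limma, though 3 had an unadjusted p under 0.05, and 57 genes passed it as higher (0.703%). The methods' t-test, run here with unequal variances on the same values and adjusted in the same way, gave adjusted p of 0.178, 0.195 and 0.180 for Serpinf1, Serping1 and Serpinb9 and called none of the 4, with 3 of them at an unadjusted p under 0.05. The study's own test differed, as it compared clones with 4 PIN samples, and it listed Serpinf1 as induced. The number of members called by limma among genes was 0 without PIN replicate 2 (0.457% of all genes called). It was 1 without PIN replicate 3 (1.12%) or 4 (4.94%) or invasive replicate 2 (2.74%), 4 (2.48%) or 5 (2.7%). It was 2 without invasive replicate 1 (6.53%) or 6 (3.31%), and 3 without invasive replicate 3 (11.1%). With PIN replicate 4 and invasive replicate 3 both left out, a setting added after the values were seen, it was 3, while 13.1% of all genes were called in that setting.

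**Figure D2:**
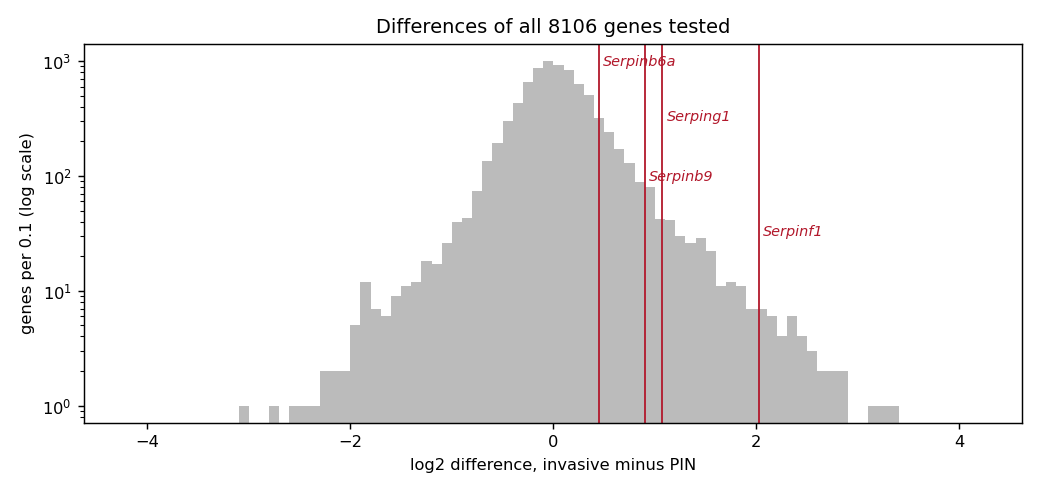
Number of genes (vertical axis, log scale) per 0.1 of the log2 difference, invasive cancer minus PIN (horizontal axis), for the 8106 genes tested. Red lines mark Serpinb6a at 0.45, Serpinb9 at 0.90, Serping1 at 1.07 and Serpinf1 at 2.02, all on the side of higher values in invasive cancer stroma.

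**Figure D3:**
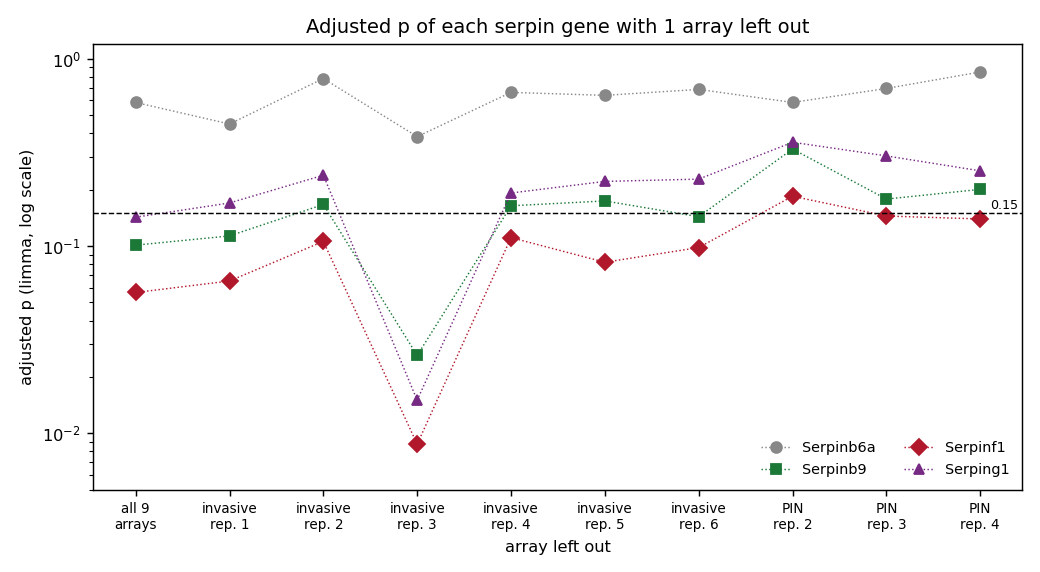
Adjusted p from limma (vertical axis, log scale) of the 4 serpin genes with all arrays and with each array left out in turn (horizontal axis); the dashed line is 0.15. All 3 genes called with all arrays drop to between 0.00874 and 0.0260 without invasive replicate 3, where 11.1% of all genes were called. All 3 lie above the line without PIN replicate 2, where 0.457% were called.

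The other serpins on the arrays were 11 genes, and limma called none of them in either direction, against 5.64% of all genes, with 1 at an unadjusted p under 0.05; the methods' t-test had 2 at that level and called none. In 8 of the 11 the difference was positive, and their median was 0.22 beside 0.02 over all genes. The closest to a call was Serpinb9c, a relative of Serpinb9 in the same cluster, whose invasive arrays ran from -0.14 to 1.66 and lay above PIN arrays of -0.44 to -0.21 (0.77 higher on average, SE 0.35; limma adjusted p = 0.325). Serpinb1a, an inhibitor of neutrophil elastase, differed by 1.04 (SE 0.50, adjusted p = 0.350), with invasive arrays from -0.75 in replicate 3 to 2.27 in replicate 2. Without invasive replicate 3 it was 1.35 and was called (adjusted p = 0.0742), while 11.1% of all genes were called in that setting. Serpinb6c had 0.53 (adjusted p = 0.434), Serpinb9b 0.22 (0.697) and Serpinb9f 0.14 (0.826). Serpinb9 itself had 0.90, and the differences between these relatives were not tested.

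Serpinh1, the collagen chaperone of the endoplasmic reticulum, differed by 0.28 (SE 0.32; limma adjusted p = 0.763), and its sign turned without PIN replicate 4 (-0.05). Serpind1, heparin cofactor II, which blocks thrombin, had 0.46 (SE 0.22, adjusted p = 0.350). The lowest differences were those of Agt and Serpina6, neither of them called. Agt, angiotensinogen, had -0.53 (SE 0.25, adjusted p = 0.350), and Serpina6, the corticosteroid carrier, -0.42 (SE 0.26, adjusted p = 0.495). Serpinb11 had 0.04 (adjusted p = 0.960). Serpini2 had -0.07 (SE 0.65, adjusted p = 0.977) and ranged between 0.00 and 3.24 in invasive cancer, the widest of the other serpins there, and between 0.95 and 1.99 in PIN stroma.

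**Figure D4:**
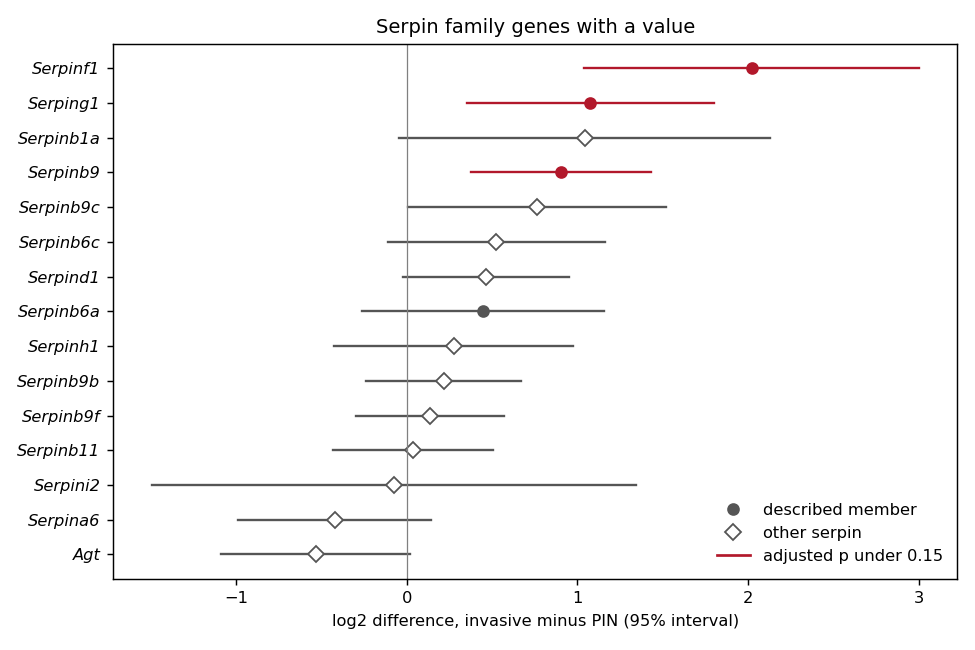
Log2 difference, invasive cancer minus PIN, with its 95% interval from limma (horizontal axis) for the 15 serpin family genes with a value. Filled circles are the described members and open diamonds the other serpins; red marks the 3 genes with an adjusted p under 0.15, led by Serpinf1 at 2.02, and gray the rest, down to Agt at -0.53.

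Proteases that serpins restrain, with their activators and neighbours in the same cascades, were taken from a list of 47 genes, of which 19 were measured. Of these, 6 were higher (adjusted p under 0.15 from limma) and none lower, and the median difference was 0.70, against 3.75% called higher and a median of 0.02 over all genes. The 4 with the smallest p were Ctsc, the cathepsin that activates granule serine proteases (2.31, adjusted p = 0.0321), the lysosomal cathepsin gene Ctsb (1.62, adjusted p = 0.0366), F3, tissue factor, which starts clotting as a cofactor and is not itself a protease (1.94, adjusted p = 0.0480), and the lysosomal Ctsl (1.99, adjusted p = 0.0620). The count was 0 without PIN replicate 2 (0.457% of all genes called) and 3 without PIN replicate 3 (1.12%). The list was drawn up with earlier results of these data known. The study had already listed Ctsb and Ctsc as induced in these samples, so the count is not independent evidence. The granzyme gene Gzmm, named after its value was seen because it was the only granzyme measured, had -0.10 (adjusted p = 0.876); Gzmb was not analysed here.

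Of 33 complement genes listed, 5 were measured and 1 was called, against 5.64% of all genes, and the median difference was 0.51. That was C1s1, which encodes the complement protease that C1 inhibitor blocks, with a mean of 0.98 in invasive cancer and -0.61 in PIN stroma (difference 1.59, SE 0.48, adjusted p = 0.136 from limma). The call was lost without any single array other than invasive replicate 3. C1ra, its partner protease, named after its value was seen, had 0.53 (SE 0.32, adjusted p = 0.488). C1s1 and C1ra were also on the list of proteases above, so the call of C1s1 was counted there too. Among 13 measured receptors and cofactors of serpins, 1 was higher and none lower, a share near the 5.64% of all genes called, with a median difference of 0.21. That was Plaur, the urokinase receptor (0.64, SE 0.19, adjusted p = 0.129), which lost its call without PIN replicate 2, 3 or 4 or invasive replicate 2, 4 or 5. The study had already listed Plaur as induced in these samples. The measured genes proposed as receptors of the Serpinf1 protein, also named after their values were seen, were Plxdc2 (0.33, adjusted p = 0.408), Rpsa (0.21, adjusted p = 0.626) and Pnpla2 (0.17, adjusted p = 0.813).

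Of 16 measured protease inhibitors outside the serpin family, 1 was higher and none lower, again near the 5.64% of all genes called, and the median difference was 0.26. That was Timp1, the inhibitor of metalloproteinases (2.61, SE 0.50, adjusted p = 0.0398 from limma). Without PIN replicate 4 (4.94% of all genes called) or invasive replicate 3 (11.1%), 4 were called. Without invasive replicate 6, 2 were (3.31%), and without PIN replicate 2 none was (0.457%).

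The genes whose log2 ratios ran most like those of each member were found among 8086 other genes with a value on all 9 arrays. They are given as a description, since the difference between the groups enters r. Each r is also among the highest of 8086, picked on these same arrays. For Serpinf1 they were Map4k4 (r = 0.985), Stab1 (0.969), the scavenger receptor of sinusoidal endothelium and macrophages, and Arpc1b (0.966), a subunit of the actin-branching complex. Over the 6 invasive arrays alone, which were among the 9 used to pick these genes, r was 0.973, 0.945 and 0.948. For Serping1 they were Crtap, Smap2 and Sdf2 (all 0.966), and for Serpinb9 they were Gsto1 (0.960), Naalad2 (0.958) and Armcx3 (0.955). For Serpinb6a, as the mean of its clones, they were Mrs2 (0.944), Zfp708 (0.930) and Ccr4 (0.913). Among the members, Serping1 had r = 0.916 with Serpinf1 and 0.918 with Serpinb9, Serpinf1 and Serpinb9 had 0.848, and r of Serpinb6a with the others was 0.518 to 0.607.

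Markers of several cell types also differed between the groups. The counts below stand beside 3.75% of all genes called higher and 1.89% called lower. All 6 macrophage markers measured were called higher, and their median log2 ratio spanned 0.84 to 2.83 in invasive cancer and -0.38 to 0.41 in PIN stroma. Of 11 fibroblast markers 5 were higher (median 0.32 to 1.51 against -0.57 to 0.28) and of 7 endothelial markers 2 (0.34 to 1.64 against -0.03 to 0.10). Smooth muscle markers went the other way, with 3 of 5 lower (-3.91 to -0.25 against -0.58 to 0.40). Invasive replicate 3 had the lowest values of its group for all 4 serpin genes, with Serpinb6a taken as the mean of its clones. On clone B of Serpinb6a it had 0.40, and the lowest was replicate 5 (-0.19). Invasive replicate 3 also had the lowest macrophage, fibroblast and endothelial medians. Its median of neuroendocrine tumor markers was the highest (2.11, against 0.43 to 1.62 on the other invasive arrays). Of the 6 neuroendocrine markers, 1 was higher. Over the 6 invasive arrays, r with the macrophage median was 0.711 for Serpinf1, 0.794 for Serping1 and 0.718 for Serpinb9. Without replicate 3 it was 0.276, -0.343 and -0.235. With the fibroblast median r was then 0.515, 0.778 and 0.282, and with the endothelial median -0.692, -0.516 and -0.182. For Serpinb6a, r without replicate 3 was 0.0213 (macrophage), -0.142 (fibroblast) and 0.604 (endothelial). With the neuroendocrine median, r over the 6 invasive arrays was -0.471 (Serpinf1), -0.823 (Serping1), -0.945 (Serpinb9) and -0.146 (Serpinb6a). Without replicate 3 these were 0.0223, -0.622, -0.893 and 0.303. With the smooth muscle median, in the same order, r was -0.424, -0.692, -0.726 and -0.888. Without replicate 3 these were 0.0158, -0.414, -0.511 and -0.855. PIN replicate 4, lowest among the PIN arrays for all 4 serpin genes and both clones of Serpinb6a, had an epithelial marker median of 0.82, against -1.31 and -1.58 in the other PIN arrays; of these 7 markers 1 was lower in invasive cancer. Of 3 skeletal muscle markers 1 was lower, and Cd4 was the only lymphocyte marker measured (not called). As ratios to a pool, these values cannot show that a cell type was present or absent, and the part of cell types in the serpin differences was not tested.

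**Figure D5:**
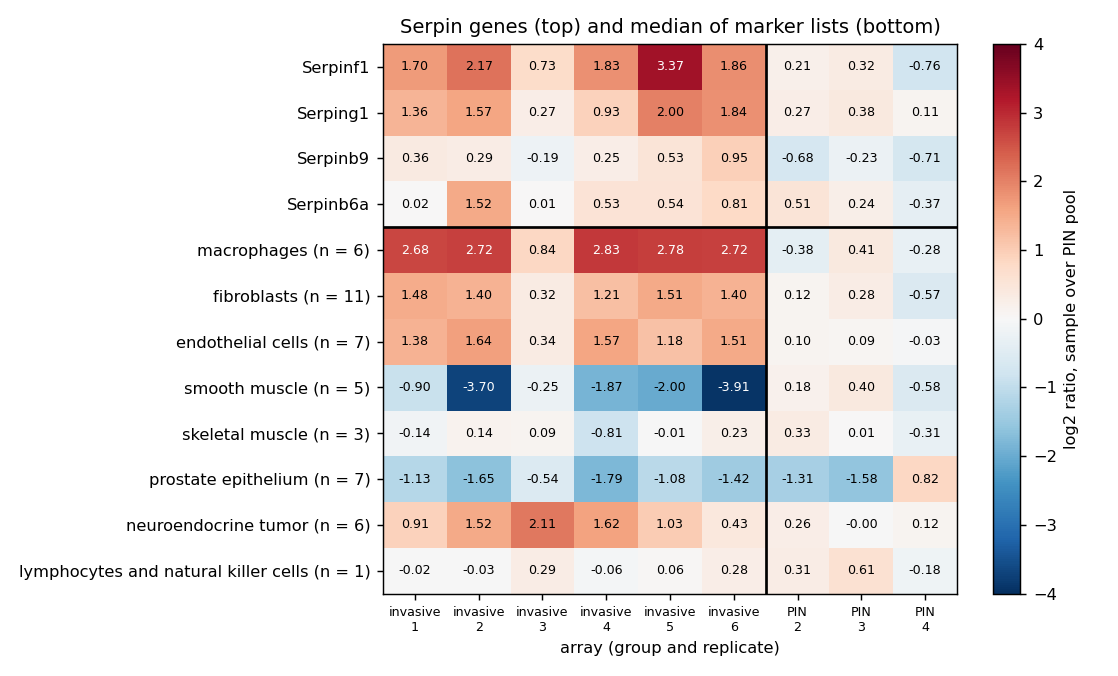
Log2 ratio of sample over PIN pool (color and printed value) of the 4 serpin genes (upper rows) and the median of each marker list with its number of genes (lower rows), for the 6 invasive cancer arrays and the 3 PIN arrays (columns). On invasive replicate 3 Serpinf1 is 0.73 and the macrophage median 0.84, both the lowest among the invasive arrays, while the neuroendocrine median is 2.11.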

How the data were processed

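RNA of laser-dissected stroma was amplified in 2 rounds and hybridized to spotted cDNA clones of a public mouse clone set. The authors deposited, for each clone and array, a log2 ratio of sample (Cy5) over the pool of PIN samples (Cy3), which they had normalized by lowess within print-tip groups, leaving background unsubtracted. Dyes were not swapped, and each PIN sample was set against a pool that contained it. The study had 4 PIN samples, and 1 PIN array was not analysed here. Spot intensities were not used, so no filter on dim spots was applied; the number of arrays limits the precision.

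The platform's table gave 1 gene symbol for 12563 of 17664 rows. Rows measured in 4 or more invasive samples and 2 or more PIN samples were fitted with limma 3.58.1 (R 4.3.3; lmFit and eBayes, two-sided) as invasive minus PIN, with Benjamini-Hochberg adjustment over all 8106 genes (clones of a symbol averaged) or all 17207 clones. The members and lists were chosen with earlier results of these data known. The text names all members with their clones, all other serpins, up to 4 called genes (or 2) of each list by smallest p, and the 3 genes most correlated with each member; exceptions are marked. The fit was tested on simulated data. Alternatives were other tests (the two-sample t-test of the methods, which do not state the variances, run with unequal and with equal ones; the unequal form is called the methods' t-test), 3 normalizations, 2 filters, medians of clones, comparison with 0, a stricter threshold, a replicate block and each array left out. Figures were drawn with matplotlib 3.10.9 in Python 3.11.15. Promoters and gene order are from RefSeq.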

Additional observations from a re-analysis of the deposited data

How the results depend on the processing

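The differences of Serpinf1, Serping1, Serpinb9 and Serpinb6a kept their direction under every alternative run, but most calls were fragile. At 2.02, 1.07 and 0.90, Serpinf1, Serping1 and Serpinb9 lost their calls by the methods' t-test, by an equal-variance t-test (adjusted p = 0.226, 0.306 and 0.221) and at an adjusted p under 0.05, leaving 0 members and 0 clones called each time. Serping1 also lost its call by scaling between arrays (0.89) and by quantile normalization (0.92). Among clones, quantile normalization dropped the call of Serpinf1 (limma adjusted p = 0.151) and called Serpinb9 instead (0.141). The exact permutation test was judged by an unadjusted p under 0.05, a different criterion, which Serping1 did not meet (p = 0.0595). Clones called were 2 with scaling, and 3 with array weights, with invasive stroma against 0 and with PIN replicate 4 and invasive replicate 3 both left out. Against 0, Serpinb6a was called (0.57), and Serpinb9 kept its call at 0.36, its lowest value. Leaving out 1 array in turn, differences ran from 1.68 to 2.26 (Serpinf1), 0.94 to 1.29 (Serping1), 0.79 to 1.06 (Serpinb9) and 0.19 to 0.64 (Serpinb6a, not called in any), with 0 to 3 members and 0 to 3 clones called. The lists of other serpins, target proteases, receptors, complement and other inhibitors then had 0 to 1, 0 to 9, 0 to 2, 0 to 2 and 0 to 4 genes called. In the same order they had 2, 11, 4, 2 and 6 with array weights and 7, 15, 7, 3 and 9 against 0. Target proteases had 3 at an adjusted p under 0.05 and 0 by the equal-variance test. Receptors had 0 in both, complement 0 in both and by the methods' t-test, and other inhibitors 0 by either t-test. With both arrays left out, other serpins had 1, complement 3 and other inhibitors 5. That setting, and all alternatives for the lists apart from other serpins, were chosen after seeing the data. Signs turned in genes or clones without a call in the comparison of the groups: Serpinb11 (-0.00040 with scaling, -0.015 with quantile normalization, -0.0036 with both arrays left out, -0.10 to 0.17 with 1 left out), Serpinb6a clone B (-0.050 with quantile normalization, -0.16 with both left out, -0.14 to 0.38), Serpini2 (1.305 and called against 0, -0.46 to 0.23), Serpinh1 (-0.048 to 0.49) and Serpinb9f (-0.0081 to 0.25). Over all genes, 457 were called, 207 by the methods' t-test, 54 by the equal-variance test, 1626 with array weights, 2595 against 0, 76 at the stricter threshold, 1064 (13.1%) with both arrays left out and 37 to 896 with 1 array left out; higher calls were 66.5% of all calls and 54.5% against 0. The causes were not tested.

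Same-numbered invasive and PIN samples share only a number: their deviations had r of -0.0858, -0.1 and -0.0187. With the replicate block, which rests on the 3 shared numbers, Serpinf1 was 1.65, Serping1 0.67 and Serpinb9 0.66, with 0 members and 0 clones called (90 genes in all, 85.6% of them higher). Target proteases had 1, receptors 0, complement 0 and other inhibitors 2 called, and the signs of Serpinh1 (-0.080) and Serpini2 (0.36) turned.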

Other observations

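A clone whose probe entry lists 5 genes of the alpha-1-antitrypsin cluster (Serpina1a to Serpina1e), secreted inhibitors of neutrophil elastase, could be assigned to none of them and entered no gene. Its log2 ratio ran from 0.31 to 1.32 in invasive cancer and from -0.56 to 0.50 in PIN stroma, differing by 0.78 (SE 0.29; limma adjusted p = 0.292 among clones), with the groups overlapping through PIN replicate 3.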
